A study of Mus musculus with 2 samples.

Results

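Retinal pigment epithelium (RPE) cells were picked out of 2 single-cell RNA-Seq libraries of whole mouse retina, and 1102 of 30924 kept barcodes met the rule, 241 of 12529 in the WT library and 861 of 18395 in the ND6 library. A barcode, the tag that marks the RNA of 1 droplet, was kept when it held more than 400 UMIs (unique molecular identifiers, 1 per captured transcript) of more than 200 genes, with mtDNA-encoded genes giving no more than 20%. It was called RPE when at least 3 of the 7 markers *Rpe65*, *Rgr*, *Rdh5*, *Lrat*, *Slc16a8*, *Rrh*, and *Ttr* were detected, *Ttr*, *Rpe65*, *Rgr*, and *Rdh5* together made up at least 1% of its UMIs, and *Ttr* plus *Rpe65* exceeded *Glul*, a Müller cell gene. The members were thus chosen by their marker UMIs, and the levels of these 8 genes are given as a description.

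The RPE is a single pigmented layer behind the photoreceptors. It stores vitamin A as retinyl esters, converts them to the chromophore 11-cis-retinal for rods and cones, engulfs shed outer segments, and forms the outer blood-retina barrier. Its melanin pigment is made in melanosomes by the tyrosinase enzyme family, under the transcription factors MITF and OTX2.

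Both libraries came from male C57BL/6J mice aged 7 months, and how many mice went into each is not given in the sources used here. The WT animals were C57BL/6J from a vendor line in which the *Crb1* Rd8 allele was not found. The ND6 animals carried the homoplasmic mtDNA mutation ND6 P25L, linked to Leber hereditary optic neuropathy, in a line made by fusion with female embryonic stem cells, so that the mutation was present in every tissue and not in the RPE alone. The dissected retina was dissociated with trypsin and papain, and the RPE reached these libraries only as far as it stayed with the retina. With 1 library per genotype no difference has a replicate check, no test was made, and all intervals are 95% intervals that cover counting error only. The genotype, the animal, and the library preparation cannot be told apart. The WT matrix held 77958836 UMIs and the ND6 matrix 80358255, of which 54524401 and 62949610 were in kept barcodes. Other libraries of the study were not analysed here.

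RPE barcodes formed a larger share of the ND6 library, and the surplus lay below 2000 UMIs. They were 1.92% of kept barcodes in WT (exact Clopper-Pearson interval 1.69% to 2.18%) and 4.68% in ND6 (4.38% to 5.0%), a log2 difference of 1.28. Below 2000 UMIs, 68 of 6584 WT barcodes (1.03%) and 697 of 11866 ND6 barcodes (5.87%) were RPE. From 2000 UMIs the order turned, with 173 of 5945 WT barcodes (2.91%) and 164 of 6529 ND6 barcodes (2.51%), and these intervals overlapped (2.50% to 3.37% and 2.15% to 2.92%). RPE barcodes are called shallow below 2000 UMIs and deep from 2000 UMIs here.

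The total RNA captured from RPE was almost equal in both libraries. RPE barcodes held 1312906 UMIs in WT and 1313942 in ND6, which was 2.41% and 2.09% of all kept UMIs. The ND6 library thus had 861 barcodes over the same number of transcripts that the WT library had in 241. The median RPE barcode had 3767 UMIs and 1394 genes in WT, against 1036 UMIs and 570 genes in ND6. Deep barcodes were 71.8% of RPE in WT (65.6% to 77.4%) and 19.0% in ND6 (16.5% to 21.8%), whereas among barcodes outside the rule they were 47.0% and 36.3%.

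**Figure D1:**
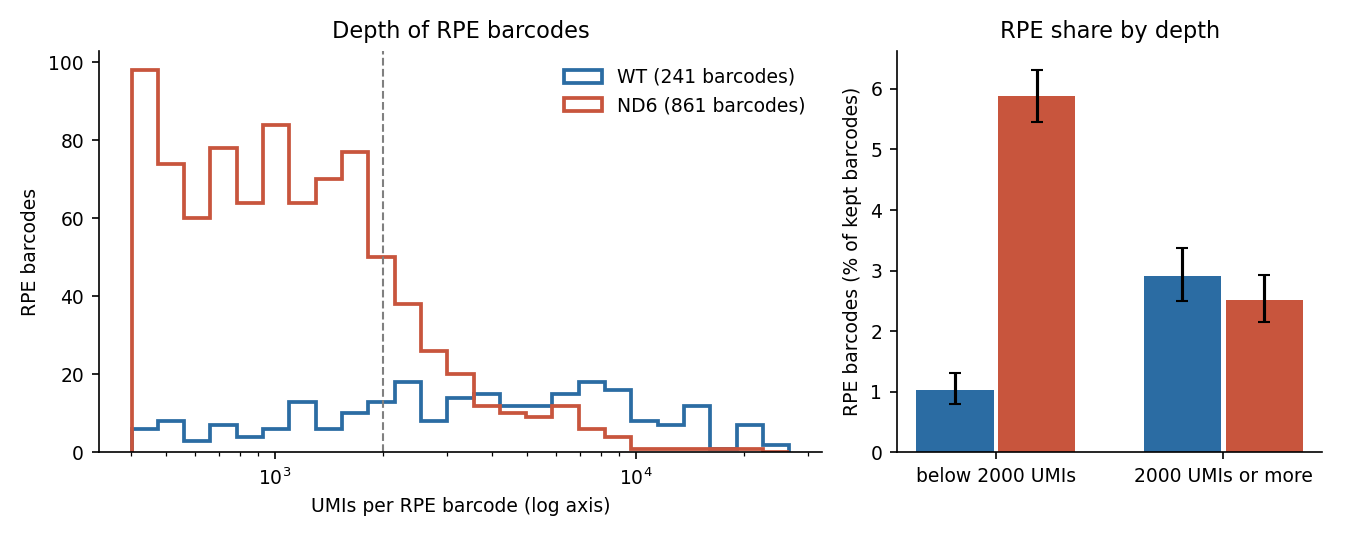
Left, number of RPE barcodes by UMIs per barcode on a log axis for the WT and ND6 libraries, with a dashed line at 2000 UMIs. Right, RPE barcodes as a percent of kept barcodes below and from 2000 UMIs, with 95% exact binomial bars. The WT barcodes are spread on both sides of the line, the ND6 barcodes pile up below it, and the shares differ below 2000 UMIs (1.03% and 5.87%) more than above it (2.91% and 2.51%).

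Few members lay close to the limits of the rule. Of the RPE barcodes, 140 of 241 in WT and 164 of 861 in ND6 had all 7 markers, while 12 and 51 had only 3. The 4-gene share ran down to 1.006% in WT and 1.023% in ND6 among members, and up to 0.984% and 0.993% among barcodes that failed on this limit alone. Between 0.5% and 1% lay 16 WT and 61 ND6 barcodes outside the rule, and between 1% and 1.5% lay 14 and 39 inside it. The *Glul* condition removed 0 WT and 1 ND6 barcode. Another 57 WT and 54 ND6 barcodes met the marker rule but had more than 20% mtDNA-encoded UMIs, which was 19.1% of WT and 5.90% of ND6 RPE barcodes counted without that limit. The libraries shared 59 kept barcode sequences, none of them RPE in both, and 4 ND6 RPE barcodes were also kept in WT as other cells. Among barcodes of 100 to 400 UMIs, below the floor, 24 of 2310 in WT (1.04%) and 396 of 47956 in ND6 (0.826%) met the marker rule.

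The chosen barcodes carried genes of RPE that the rule did not use. *Rlbp1*, the 11-cis-retinal binding protein, was at 3373 CPM (UMIs scaled to a total of 1000000) in deep WT and 1998 CPM in deep ND6 RPE barcodes, against 58.4 and 82.7 CPM in rod barcodes. *Stra6*, the receptor that takes up retinol from its plasma carrier, was at 711 and 542 CPM, against 1.84 and 1.66 CPM in rod barcodes. *Dct*, the dopachrome tautomerase of melanin synthesis, was at 2675 and 834 CPM, against 4.40 and 1.69 CPM in rod barcodes. *Best1*, the RPE chloride channel, had 0 UMIs in the RPE barcodes of either library, where 3 UMIs would be 2.29 CPM in WT and 2.28 CPM in ND6. *Cdh1*, *Cldn19*, *Cd36*, *Tfec*, and 5 genes of the retinoid list (*Dhrs9*, *Hsd17b1*, *Hsd17b6*, *Rdh16*, and *Sdr9c7*) were also at 0 in the RPE barcodes of both libraries. *Serpinf1*, which encodes the secreted factor PEDF, had 0 UMIs in WT and 1 in ND6, and *Spp1* had 0 in WT.

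The markers were found at a low level in other cells, and the source of those UMIs was not tested. *Ttr* was at similar levels in rod barcodes of both libraries, 79.8 CPM in WT and 80.8 CPM in ND6, against 67237 and 54811 CPM in deep RPE barcodes. *Rpe65* was detected in 98.3% of deep WT and 97.0% of deep ND6 RPE barcodes (median 5775 and 2869 UMIs), and in 2.65% and 2.03% of deep rod barcodes (median 3940 and 4344 UMIs). After thinning every barcode to 400 UMIs these shares were 72.2% and 66.8% in RPE and 0.228% and 0.192% in rod barcodes.

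Markers that define several other cell types were at 0, but most of their lists held some UMIs. Across the RPE barcodes the endothelial markers *Cldn5* and *Cdh5* and the pericyte marker *Rgs5* had 0 UMIs, but their 9-gene list had 627 UMIs in WT and 433 in ND6, of which *Ramp2*, a receptor partner, held 432 and 275. Also at 0 were the fibroblast collagens *Col1a1*, *Col1a2*, and *Col3a1* and 5 of 6 lens genes. The microglial complement gene *C1qa* had 0 UMIs in WT, as did *C1qc*, *Tyrobp*, *Fcer1g*, and *Aif1*. All of these were detected in ND6, where *Cx3cr1* alone of the 10-gene microglial list was at 0. That list made up 0.0120% of WT and 0.0143% of ND6 RPE UMIs, with *Csf1r* as its most abundant gene. Of the 5 melanocyte and Schwann cell markers, *Mc1r* was at 0, and *Sox10* was the most abundant with 74 WT and 50 ND6 UMIs. Of the 8 Müller cell genes, *Clu* held 9835 of 11068 UMIs in WT and 9082 of 10155 in ND6, while *Slc1a3* and *Aqp4*, which define these cells, had 2 and 0 UMIs in deep WT and 7 and 0 in deep ND6 barcodes. The 5-gene choroid plexus list had 983 UMIs in WT, led by *Clic6* with 460, and 694 in ND6, led by *Sostdc1* with 334, and its *Kl* was at 0 in WT.

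Cone genes had more UMIs in ND6 than in WT RPE barcodes. The 8-gene cone list had 480 UMIs in WT and 1156 in ND6, led by *Pde6h*, a cone phosphodiesterase subunit, with 118 and 316. In deep barcodes it made up 0.0358% of WT and 0.120% of ND6 UMIs, and all 6 genes with a ratio (at least 50 UMIs in deep barcodes of both libraries together) were at least 2-fold higher in ND6, as were 9.32% of all 4527 genes with a ratio. With under 2% rod transcripts the shares were 0.0227% and 0.0259%, and the intervals of all 3 ratios reached both sides of 0.

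Rod transcripts had more UMIs than any other list of another cell type, and summed over barcodes their share was lower in deep than in shallow RPE of WT but not of ND6. The 15-gene rod list made up 3.98% of shallow and 1.52% of deep RPE UMIs in WT. In ND6 it made up 3.47% and 3.77%. Barcodes of 10 to 100 UMIs, which hold mostly free RNA, had 7.52% in WT and 8.01% in ND6, and rod barcodes had 9.94% and 10.1%. The median share per barcode was lower in deep barcodes of both libraries, at 3.21% in shallow and 0.546% in deep WT RPE and at 1.90% and 0.908% in ND6.

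RPE barcodes with at least 2% rod transcripts were common in both libraries. They were 55 of 173 deep WT barcodes (31.8%, 24.9% to 39.3%) and 72 of 164 deep ND6 barcodes (43.9%, 36.2% to 51.9%). Among shallow barcodes they were 43 of 68 (63.2%) and 332 of 697 (47.6%). From 8000 UMIs they were 11 of 57 in WT and 8 of 9 in ND6. No doublet caller was run, and whether these barcodes hold a rod together with an RPE cell, a fragment of an engulfed outer segment, or free RNA was not tested. Since rod transcripts take a part of the total that each level is divided by, the comparisons of deep barcodes below are given beside, or only for, those with under 2% rod transcripts (rod-poor, 118 in WT and 92 in ND6).

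**Figure D2:**
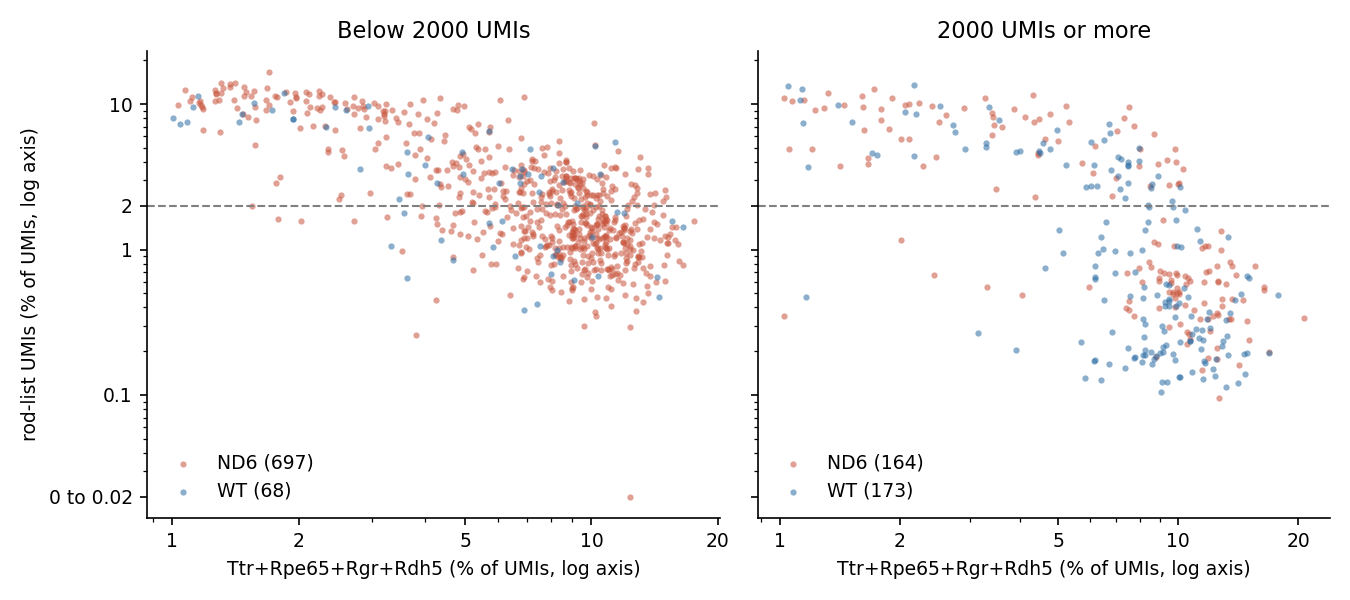
Each point is 1 RPE barcode, with the share of UMIs from *Ttr*, *Rpe65*, *Rgr*, and *Rdh5* on the horizontal log axis and from the rod list on the vertical log axis, below and from 2000 UMIs. Barcodes under 0.02% rod transcripts are drawn at 0.02%. The dashed line marks 2%, and 72 of 164 deep ND6 barcodes and 55 of 173 deep WT barcodes lie on or above it.

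The levels of the 7 rule markers describe the chosen barcodes and nothing is read from their differences. In rod-poor deep barcodes *Ttr*, the thyroxine and retinol-carrier transporter, was at 76032 CPM in WT and 81017 CPM in ND6. *Rpe65*, the isomerase that makes 11-cis-retinol, was at 4906 and 4984 CPM. *Rgr*, a light-sensing opsin of the RPE, was at 12307 and 14851 CPM, and *Rdh5*, the 11-cis-retinol dehydrogenase, at 5968 and 6353 CPM. *Lrat*, which esterifies retinol for storage, was at 1182 and 1432 CPM, *Slc16a8*, the RPE lactate transporter, at 2012 and 2516 CPM, and *Rrh*, peropsin, at 390 and 436 CPM. In all deep barcodes the 7 log2 ratios of ND6 over WT lay between -0.42 and -0.05, and in rod-poor ones between 0.02 and 0.32, with 5 of 7 intervals below 0 in the former and 5 of 7 above 0 in the latter.

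Genes of melanin synthesis stood lower in the ND6 library, in deep and in rod-poor barcodes. The promoters of *Dct*, *Tyrp1*, and *Rpe65* are shown because *Dct* and *Tyrp1* are the pigment enzymes with the most ND6 and WT UMIs and *Rpe65* is one of the markers that chose the barcodes. They run from 250 bases before to 50 bases after the start in RefSeq (GRCm38.p6, the build of mm10), 5′ to 3′ on the gene's strand, with CATGTG (an E-box of the kind MITF binds) and TAATCC (a homeodomain motif of the kind OTX2 binds) in capitals on either strand, where the other strand reads CACATG and GGATTA.
Dct, minus strand, chr14:118052197-118052496: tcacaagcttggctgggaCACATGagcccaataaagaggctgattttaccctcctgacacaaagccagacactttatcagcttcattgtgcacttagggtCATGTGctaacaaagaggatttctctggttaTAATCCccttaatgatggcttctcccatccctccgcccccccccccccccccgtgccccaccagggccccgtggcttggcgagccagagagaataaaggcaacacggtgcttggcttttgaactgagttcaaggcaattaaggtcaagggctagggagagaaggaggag
Tyrp1, plus strand, chr4:80833963-80834262: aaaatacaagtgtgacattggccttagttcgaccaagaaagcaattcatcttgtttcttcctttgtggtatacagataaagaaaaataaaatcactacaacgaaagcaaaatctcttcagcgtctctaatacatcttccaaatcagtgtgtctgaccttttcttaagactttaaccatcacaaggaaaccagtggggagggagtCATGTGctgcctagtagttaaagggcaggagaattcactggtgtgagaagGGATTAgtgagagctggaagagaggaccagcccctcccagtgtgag
Rpe65, plus strand, chr3:159598931-159599230: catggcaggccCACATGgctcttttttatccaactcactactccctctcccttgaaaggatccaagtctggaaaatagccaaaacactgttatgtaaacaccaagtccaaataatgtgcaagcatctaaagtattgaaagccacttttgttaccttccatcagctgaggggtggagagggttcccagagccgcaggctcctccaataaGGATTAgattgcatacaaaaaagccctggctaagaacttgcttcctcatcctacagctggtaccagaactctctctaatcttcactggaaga

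*Dct* (ENSMUSG00000022129) lies on chromosome 14 from 118012790 to 118052244, *Tyrp1* (ENSMUSG00000005994) on chromosome 4 from 80834123 to 80851719, and *Rpe65* (ENSMUSG00000028174) on chromosome 3 from 159599175 to 159625321. CATGTG occurred in 14.2% and TAATCC in 7.06% of the 32851 promoters of this length. RefSeq promoters were at hand for 7 of the 12 pigment genes, and 6 of these held CATGTG and 2 held TAATCC. Of the 7 rule markers 6 were searched, and 2 held each motif. *Ttr* was not searched because promoters on its chromosome were left out of the selection. These letter matches are a description and not binding sites.

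*Dct* was the pigment gene with the most UMIs. It had 3315 UMIs in deep WT and 537 in deep ND6 barcodes, 2675 CPM (Poisson interval 2585 to 2767) and 834 CPM (765 to 908), a log2 ratio of -1.68 (-1.82 to -1.55). In rod-poor deep barcodes it was at 3031 and 1103 CPM (-1.46, -1.62 to -1.30), and in shallow barcodes at 1618 and 834 CPM (-0.96, -1.24 to -0.66). The ND6 level was below the WT level in each of 5 depth classes, and the intervals overlapped only below 1000 UMIs (927 to 1988 CPM and 817 to 1051 CPM). It ran from 1384 CPM below 1000 UMIs to 2855 CPM between 4000 and 8000 UMIs in WT, and between 771 and 928 CPM throughout in ND6.

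The difference in *Dct* was spread over many barcodes. Among rod-poor deep barcodes *Dct* was detected in 114 of 118 in WT, with quartiles of 893, 2085, and 4150 CPM, and in 76 of 92 in ND6, with quartiles of 343, 753, and 1689 CPM. The upper quartile in ND6 was thus below the median in WT, although single barcodes overlapped, up to 11988 CPM in WT and 4757 CPM in ND6. Thinned to 400 UMIs, 48.4% of deep WT and 24.9% of deep ND6 RPE barcodes had a *Dct* UMI, against 0.132% and 0.0637% of deep rod barcodes. Before thinning these shares were 90.8%, 74.4%, 1.59%, and 0.795%.

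**Figure D3:**
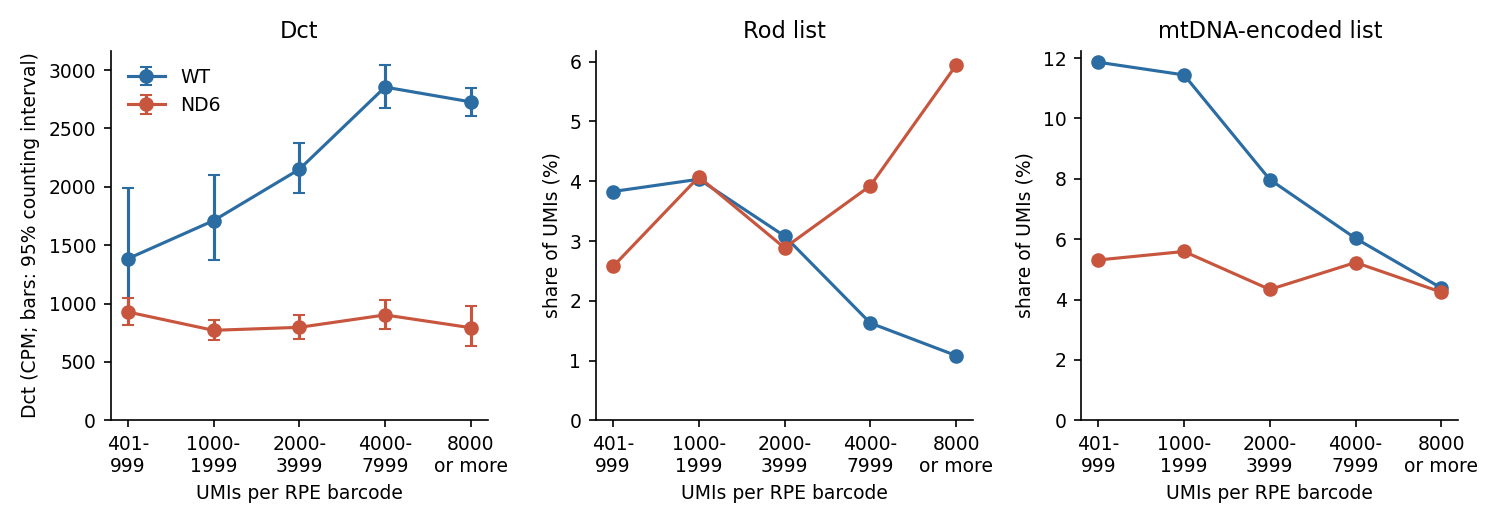
*Dct* in CPM with 95% Poisson bars, and the rod-list and mtDNA-encoded shares of UMIs in percent, by UMIs per RPE barcode in 5 classes for the WT and ND6 libraries. *Dct* is lower in ND6 in every class. From 1000 UMIs the rod share goes down with depth in WT (4.03% to 1.08%) and reaches 5.94% in the deepest ND6 class, and the mtDNA-encoded shares of both libraries meet at 4.38% and 4.25% in the deepest class.

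Other pigment genes pointed the same way. *Tyrp1*, which stabilizes tyrosinase and acts late in melanin synthesis, was at 312 and 117 CPM in deep WT and ND6 barcodes and at 339 and 155 CPM in rod-poor ones (log2 -1.13, -1.60 to -0.69). *Pmel*, the fibrous scaffold of the melanosome, was at 338 and 94.8 CPM in rod-poor barcodes (-1.83, -2.43 to -1.29). *Mlana*, a melanosome protein, was at 187 and 53.7 CPM (-1.80, -2.61 to -1.08), and *Tyr*, the rate-limiting tyrosinase, at 259 and 145 CPM (-0.83, -1.32 to -0.37). *Tyrp1* was detected in 71 of 118 rod-poor WT and 26 of 92 rod-poor ND6 barcodes, and *Pmel* in 41 and 11, not matched for depth. Of the 10 pigment genes with a rod-poor ratio, 6 had an interval below 0. The other 4, the melanosome transporters *Slc24a5* (-0.48 to 0.14) and *Oca2* (-0.65 to 0.32), the tetraspanin *Tspan10* (-0.65 to 0.35), and the melanosome receptor *Gpr143* (-1.07 to 0.56), had intervals that reached both sides of 0.

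Of the 12 pigment genes 11 had at least 50 UMIs in deep barcodes of both libraries together, the minimum for a ratio, and all 11 ratios were below 0 with a median of -1.05. At least 2-fold lower were 6, *Tyrp1*, *Tyr*, *Rab27a*, *Pmel*, *Dct*, and *Mlana*, where 2.65% of all 4527 genes with a ratio were at least 2-fold lower and 9.32% at least 2-fold higher. In rod-poor barcodes 10 had a ratio, all below 0 with a median of -0.77, and 4 were at least 2-fold lower, where 2.03% of all 2951 genes were. Over all genes 2069 of 4527 ratios were below 0 in deep barcodes (median 0.06), 612 of them with an interval below it, and 1546 of 2951 in rod-poor ones (median -0.02), 230 of them with an interval below it. In shallow barcodes 6 of 8 were below 0 (median -0.50), with *Tyrp1* alone at least 2-fold lower, as were 2.33% of all 2019 genes. *Sox10*, the melanocyte marker with the most UMIs, was at 58.1 CPM in deep WT and 34.2 CPM in deep ND6 barcodes, at 60.9 and 50.6 CPM in rod-poor ones, and its part in the pigment values was not tested.

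**Figure D4:**
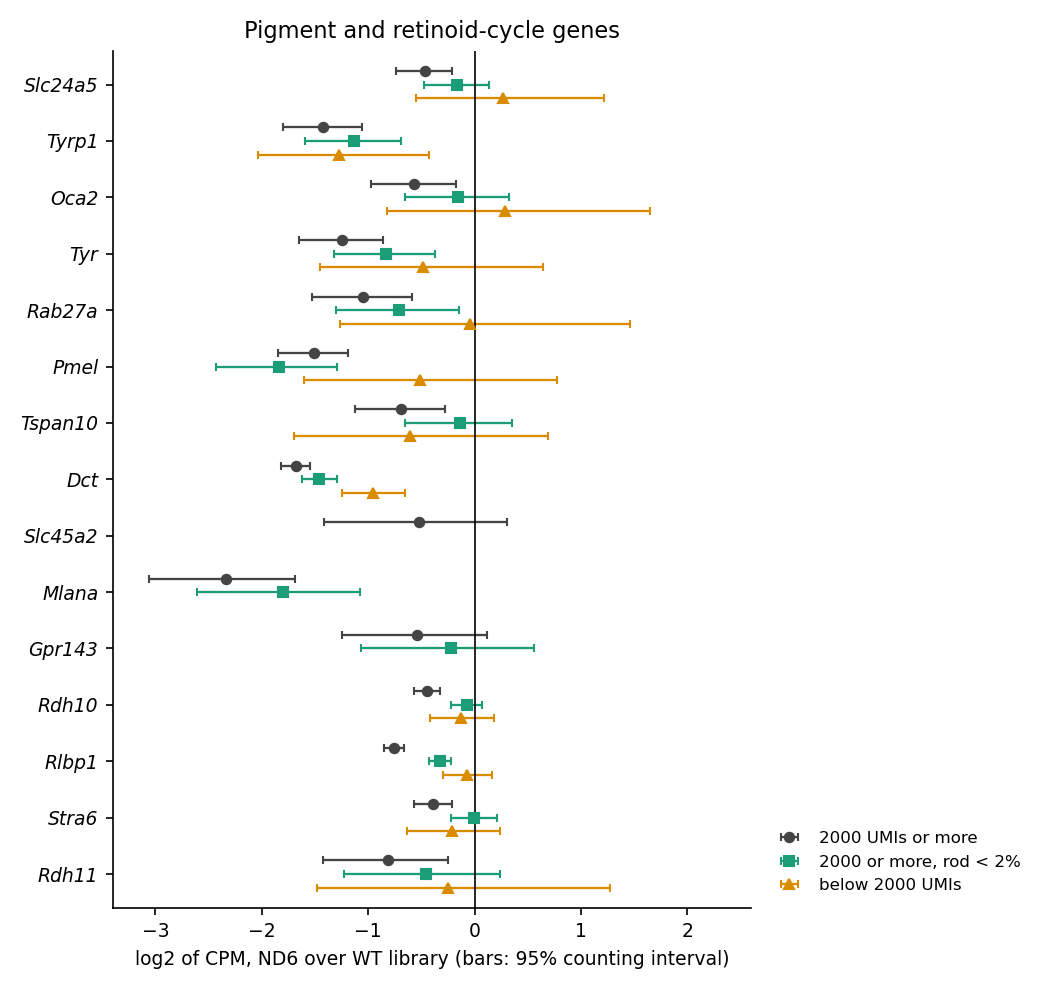
log2 of CPM in the ND6 over the WT library for the pigment genes (*Slc24a5* to *Gpr143*) and 4 retinoid-cycle genes outside the rule (*Rdh10* to *Rdh11*) in deep, rod-poor deep, and shallow RPE barcodes, with 95% counting intervals and only genes with at least 50 UMIs. *Dct* and *Tyrp1* lie below 0 in all 3 sets, whereas *Stra6* and *Rdh10* lie near 0 in rod-poor barcodes.

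Retinoid-cycle genes that the rule did not use were compared in the same way, and their difference from the pigment genes was not tested. In deep barcodes 5 of the 14 listed genes had a ratio, and all 5 ratios and intervals were below 0, with a median of -0.64. Over all 4527 genes 2069 ratios were below 0, 612 of them with an interval below it. In rod-poor barcodes the same 5 were below 0 with a median of -0.23. Of their intervals 2 lay below 0 there, as did those of 230 of all 2951 genes. *Rlbp1* was at 3685 and 2946 CPM there (-0.32, -0.43 to -0.22). *Stra6* was at 756 and 752 CPM (-0.01, -0.22 to 0.21), and *Rdh10*, a retinol dehydrogenase, at 1714 and 1628 CPM (-0.07, -0.22 to 0.07). In shallow barcodes the intervals of all 5 reached both sides of 0. None of the 5 was at least 2-fold lower in any of these sets, where 2.65% of all genes were in deep, 2.03% in rod-poor, and 2.33% in shallow barcodes.

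mtDNA-encoded transcripts took a smaller share of RPE RNA in the ND6 library, most clearly at low depth. The 13 genes made up 11.6% of shallow and 5.35% of deep RPE UMIs in WT, and 5.48% and 4.64% in ND6. The median per barcode was 6.42% in WT and 3.70% in ND6. Barcodes outside the rule had medians of 11.7% and 8.46%, also lower in ND6. All these medians cover only barcodes within the limit of 20%. Over all cell types it removed 10647 of 23176 WT and 3861 of 22256 ND6 barcodes, so the medians of the 2 libraries were cut unequally. Without the limit the shares of shallow RPE were 19.0% and 6.63%, and those of deep RPE 5.55% and 5.22%.

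Most of the 13 genes shared this direction. In shallow barcodes 12 had a ratio, all were below 0, and the median was -1.10. In rod-poor deep barcodes all 12 with a ratio were also below 0 (median -0.65), and every interval lay below 0, as did those of 230 of all 2951 genes. Without the 20% limit the rod-poor median was -0.41. *mt-Co1*, a core subunit of complex IV, was at 5954 and 3951 CPM there (-0.59, -0.68 to -0.50), and *mt-Cytb* of complex III at 7424 and 4728 CPM (-0.65, -0.73 to -0.57). *mt-Nd5*, a subunit of complex I, was at 619 and 291 CPM (-1.09, -1.42 to -0.77). *mt-Atp8*, a small subunit of ATP synthase, was at 109 and 9.48 CPM, the latter from very few UMIs. Its ratio was the lowest of the list (-3.52, -5.82 to -1.93), but in rod barcodes it was also lower in ND6, at 265 and 93.2 CPM. In all deep barcodes 12 of 13 were below 0 (median -0.30), and without the limit the median was -0.13.

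The mutated gene itself was scarcely captured. *mt-Nd6*, the complex I subunit on the other strand of mtDNA, had 34 UMIs in WT and 30 in ND6 over all RPE barcodes, 25.9 CPM (17.9 to 36.2) and 22.8 CPM (15.4 to 32.6). No difference in its level was detectable at this depth.

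**Figure D5:**
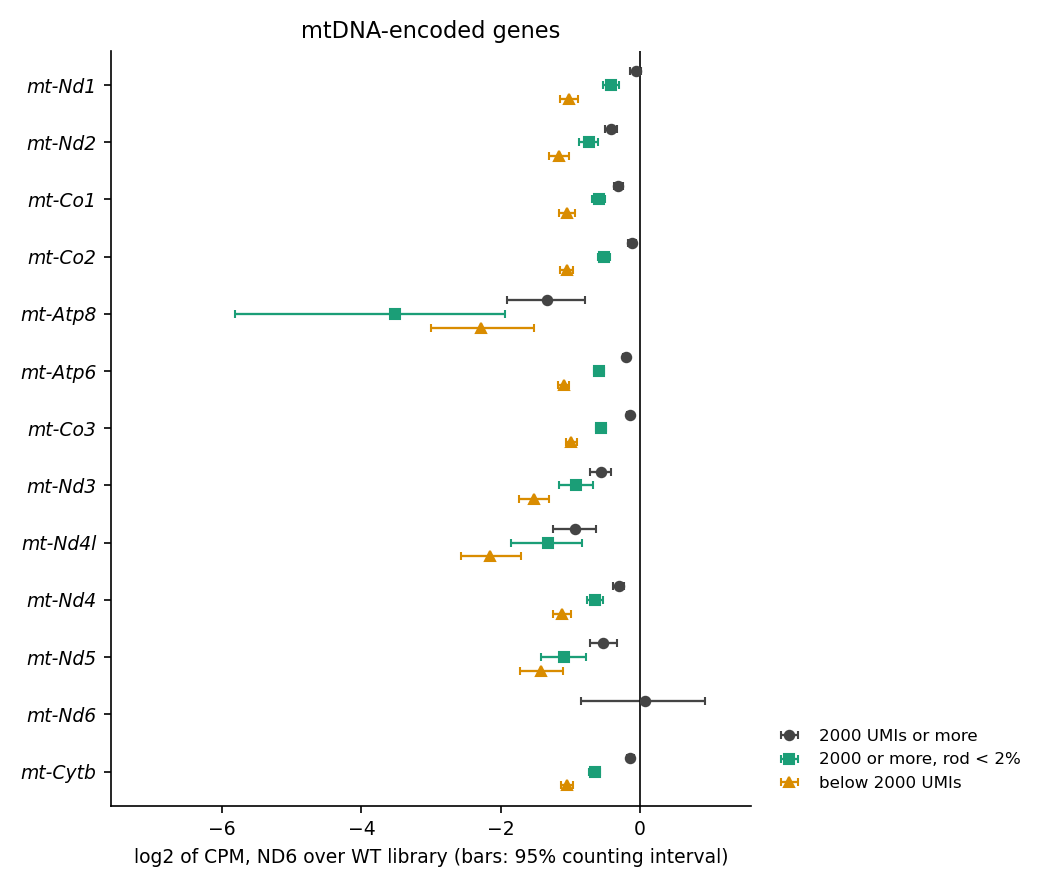
log2 of CPM in the ND6 over the WT library for mtDNA-encoded genes in deep, rod-poor deep, and shallow RPE barcodes, with 95% counting intervals and only genes with at least 50 UMIs. All genes with a ratio lie below 0 in rod-poor and shallow barcodes, furthest for *mt-Atp8*, and closer to 0 in all deep barcodes. In rod-poor ND6 barcodes *mt-Atp8* had very few UMIs.

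Nuclear-encoded genes of oxidative phosphorylation differed by less than 2-fold in deep barcodes, with more ratios below than above 0. Of 78 listed genes 77 had a ratio there, 18 above and 59 below 0 (median -0.18). Their intervals lay below 0 for 38 and above it for 4. Over all 4527 genes 2069 ratios were below 0, and 612 intervals lay below and 987 above it. In rod-poor barcodes 23 were above and 54 below 0 (median -0.08), with 17 intervals below and 1 above it. Over all 2951 genes there, 230 intervals lay below and 250 above 0. In shallow barcodes 43 were above and 32 below 0 (median 0.06). For complex V, the ATP synthase, 16 of 17 ratios were below 0 in deep barcodes (median -0.27), with 12 intervals below it. In rod-poor ones 16 of 17 were below 0 (median -0.22), with 8 intervals below it. But in shallow ones 9 were above and 8 below 0 (median 0.02) with no interval below 0. *Cox8b*, a complex IV isoform that was not on the list, stood apart. It was at 2185 CPM in deep WT and 539 CPM in deep ND6 barcodes, and at 2520 and 822 CPM in rod-poor ones (-1.62, -1.81 to -1.43).

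*Cox8b* (ENSMUSG00000025488, chromosome 7 from 140898945 to 140900446) was close to absent from rod barcodes, at 3.71 and 1.42 CPM. It was detected in 94 of 118 rod-poor deep WT barcodes, with a median of 941 CPM, and in 45 of 92 of ND6, with a median of 0. These barcodes had a median of 6513.5 UMIs in WT and 2728 in ND6, so the detection counts are not matched for depth. *Cox8b* was also among the genes higher in deep than in shallow RPE barcodes of both libraries, with 938 CPM in shallow WT and 407 CPM in shallow ND6.

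Genes of the oxidant defence and of glycolysis were mixed, and most genes of fatty acid use had ratios below 0 in deep and rod-poor barcodes. Of 12 antioxidant genes 8 had a ratio in rod-poor barcodes, 3 above and 5 below 0 (median -0.16). *Sod1*, the cytosolic superoxide dismutase, was at 307 and 212 CPM (-0.53, -0.94 to -0.14), and *Cat*, catalase, at 298 and 212 CPM (-0.49, -0.90 to -0.10). *Gpx4*, which reduces lipid peroxides, was at 6483 and 7863 CPM (0.28, 0.21 to 0.35), and *Sod2*, the mitochondrial superoxide dismutase, at 303 and 278 CPM (-0.12, -0.49 to 0.23). Of 11 genes of fatty acid oxidation and ketone synthesis 9 had a ratio in deep barcodes. Of these 1 was above and 8 below 0 (median -0.69), with 5 intervals below and none above it. In rod-poor ones 7 had a ratio, 2 above and 5 below 0 (median -0.50). There 3 intervals lay below and none above 0, and no ratio was past 2-fold. Over all genes the interval lay below 0 for 612 of 4527 in deep and 230 of 2951 in rod-poor barcodes. *Acat1*, a mitochondrial thiolase and the one gene of this list at least 2-fold lower in deep barcodes, where 2.65% of all genes were, was at 137 and 65.2 CPM there (-1.07, -1.60 to -0.58) and at 148 and 91.7 CPM in rod-poor ones (-0.69, -1.32 to -0.10). In shallow barcodes 4 had a ratio, 1 above and 3 below 0 (median -0.30), and the one above was *Acadl*, a fatty acyl dehydrogenase, with 1 UMI in WT and 56 in ND6 (2.62, 0.08 to 7.95). Of 13 glycolysis genes all had a ratio in deep barcodes, 8 above and 5 below 0 (median 0.22), with *Hk2*, *Ldha*, and *Hk1* at least 2-fold higher, as were 9.32% of all genes, and each at 346 CPM or more in rod barcodes of both libraries. In rod-poor barcodes 12 had a ratio, 2 above and 10 below 0 (median -0.11), with 2 intervals below 0, and in shallow ones 4 were above and 9 below 0 (median -0.09). In these shallow barcodes, where the rod share was 3.98% in WT and 3.47% in ND6, *Hk2* had 3 and 86 UMIs (1.65, 0.06 to 3.96), *Hk1* 4 and 93 (1.35, -0.05 to 3.26), and *Ldha* 22 and 173 (-0.21, -0.86 to 0.50).

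Barrier and transport genes were divided. Of 18 genes 13 had a ratio in rod-poor barcodes, 6 above and 7 below 0 (median -0.02). *Kcnj13*, the apical potassium channel, was at 734 and 1166 CPM (0.67, 0.48 to 0.85), and *Slc2a1*, the glucose transporter GLUT1, at 833 and 1113 CPM (0.42, 0.23 to 0.60). *Bsg*, the chaperone of the lactate transporters, was at 6318 and 7772 CPM (0.30, 0.23 to 0.37). *Krt8*, an epithelial keratin, was at 332 and 183 CPM (-0.85, -1.29 to -0.45), and *Cdh3*, P-cadherin, at 103 and 53.7 CPM (-0.94, -1.78 to -0.19), while *Krt18*, the partner of *Krt8*, was at 1187 and 1173 CPM (-0.02, -0.19 to 0.15). In all deep barcodes *Slc2a1* was at 828 and 783 CPM and *Kcnj13* at 655 and 753 CPM. There 3 ratios were above and 10 below 0, with 2 intervals above and 9 below it. Over all 4527 genes in deep barcodes, 987 intervals lay above and 612 below 0. In shallow barcodes 12 had a ratio, 10 above and 2 below 0. Of their intervals 5 lay above 0, as did those of 122 of all 2019 genes, and none below it. In shallow barcodes with under 2% rod transcripts *Krt8* was at least 2-fold higher in ND6, as were 142 of all 1027 genes.

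Genes of phagocytosis and of secretion were close in rod-poor barcodes. Of 16 phagocytosis and lysosome genes 14 had a ratio, 6 above and 8 below 0 (median -0.04). *Mertk*, the receptor that drives engulfment of outer segments, was at 68.5 and 66.4 CPM (-0.05, -0.83 to 0.69), and *Itgav*, an integrin that tethers them, at 525 and 401.4 CPM (-0.39, -0.68 to -0.10). *Ctsd*, the main lysosomal protease of RPE, was at 2432 and 2838 CPM (0.22, 0.11 to 0.34). Of 13 secreted and matrix genes 10 had a ratio, 3 above and 7 below 0 (median -0.06). *Ptgds*, a prostaglandin synthase, was at 70838 and 68634 CPM, *Timp3*, a matrix protease inhibitor, at 3263 and 3271 CPM, and *Apoe*, the lipid carrier, at 11053 and 9956 CPM.

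In all deep barcodes these lists gave lower values for ND6, beside the higher rod share there. The medians were -0.26 for phagocytosis and lysosome, -0.36 for barrier and transport, and -0.49 for secreted and matrix genes, and in shallow barcodes 0.01, 0.46, and 0.24. Rod transcripts made up 1.52% of deep WT and 3.77% of deep ND6 RPE UMIs, and their part in these medians was not tested beyond the rod-poor values above.

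Transcription factors of RPE were measured with few UMIs. *Mitf*, the master regulator of pigment genes, had 76 UMIs in deep WT and 25 in deep ND6 barcodes, which was 61.3 and 38.8 CPM (-0.66, -1.37 to 0.01), and in rod-poor ones it was at 67.4 and 31.6 CPM (-1.09, -2.22 to -0.12). *Otx2*, which photoreceptors also express, was at 428 and 341 CPM (-0.33, -0.65 to -0.02) in rod-poor barcodes and at 354 and 303 CPM in rod barcodes. *Sox9* was at 150 and 117 CPM (-0.36, -0.92 to 0.17) and *Lhx2* at 102 and 104 CPM (0.03, -0.59 to 0.62).

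The nuclear RNA *Malat1* was higher in ND6 RPE barcodes. It was at 1385 CPM in rod-poor WT and 3954 CPM in rod-poor ND6 barcodes (1.51, 1.40 to 1.63), and per barcode its median was 300 and 1616 CPM. In all deep barcodes the ratio was 1.54, but 0.77 without the barcodes from 8000 UMIs, where *Malat1* was at 3077 CPM in 57 WT and 24424 CPM in 9 ND6 barcodes. Among shallow RPE barcodes the ratio was 0.68. In rod barcodes *Malat1* was at 31889 and 27012 CPM, so its summed level there was lower in ND6. Its detection after thinning to 400 UMIs was higher in ND6 in rod barcodes too. These shares were 49.1% and 77.4% of rod barcodes below 2000 UMIs, and 81.3% and 84.8% of deep ones. For RPE they were 56.5% and 79.3% of shallow and 28.5% and 58.8% of deep barcodes. *Meg3*, an imprinted long noncoding RNA, was at 56.5 and 174 CPM in rod-poor barcodes (1.62, 1.05 to 2.20), and in rod barcodes at 23.3 and 159 CPM.

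Of genes on no list, the 10 with the highest ratio in deep barcodes were genes with high levels in rod barcodes. *Mir124-2hg*, the host of a neuronal microRNA, was at 139 and 710 CPM in deep RPE and at 1328 and 1803 CPM in rod barcodes. In rod-poor RPE it was at 44.6 and 190 CPM (2.09, 1.49 to 2.70), so the ratio was nearly as large there. *Reep6*, a rod endoplasmic reticulum protein, was at 135 and 517 CPM in deep RPE and at 1048 and 1503 CPM in rod barcodes, with 31.5 and 101 CPM in rod-poor RPE (1.68, 0.91 to 2.46). Others among the 10 were *Vax2os*, *Sncb*, *Mef2c*, *Slc17a7*, *Fam57b*, and *Car2*, which lay at 297 to 1549 CPM in rod barcodes. In rod-poor RPE the intervals of *Sncb* (2.08), *Slc17a7* (1.16), and *Fam57b* (1.54) were also above 0. *Vax2os*, *Car2*, and *Mef2c* had 45, 44, and 18 UMIs there over both libraries, under the minimum of 50 for a ratio. Rod-poor barcodes are part of the deep barcodes by which these genes were picked, so the 2 sets are not independent. In shallow barcodes *Mir124-2hg* (1.72, 0.78 to 2.87) and *Vax2os* (1.09, 0.07 to 2.33) had intervals above 0, and those of *Reep6* and the other 5 reached both sides of it.

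The 10 lowest included 8 genes with at most 20.7 CPM in rod barcodes besides *Cox8b*. *Gja1*, the gap junction protein connexin 43, was at 175 and 57.5 CPM in deep barcodes and at 193 and 85.3 CPM in rod-poor ones (-1.18, -1.82 to -0.59). *Sdcbp*, syntenin, was at 491 and 272 CPM in rod-poor barcodes (-0.85, -1.20 to -0.52), and *Myrf*, a membrane-bound transcription factor, at 187 and 111 CPM (-0.76, -1.33 to -0.23). The others were *Fcor*, *Wfdc2*, *Dhrs1*, *Fam13a*, and *Fbxw4*, with rod-poor ratios between -0.95 and -0.39, of which the interval of *Fam13a* reached both sides of 0 (-0.89 to 0.08). In shallow barcodes 7 of these 8 had a ratio and all 7 intervals reached both sides of 0, with ratios above 0 for *Gja1* (0.11), *Dhrs1* (0.59), and *Myrf* (0.34). The lowest of all was *AY036118*, a transcript that overlaps ribosomal RNA sequence, at 467 and 88.5 CPM in deep barcodes and at 463 and 66.4 CPM in rod-poor ones (-2.80, -3.51 to -2.17), and at 150 and 92.3 CPM in rod barcodes.

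Deep and shallow RPE barcodes were also compared within each library, and the difference between the libraries was not tested. Among genes on no list with at least 200 UMIs in each library and the same direction in both, the highest deep over shallow ratios were those of *Snw1*, *Lmbrd1*, *Adh5*, *Cox8b*, *Prdx1*, *Cstb*, *Sesn3*, *Tspo*, *Etfb*, and *Selenos*. In WT the intervals of 9 of these 10 were above 0, and that of *Sesn3* reached both sides of it (0.83, -0.17 to 2.06). In ND6 those of *Cox8b* (0.40, 0.17 to 0.64) and *Sesn3* (0.57, 0.16 to 0.99) were above 0, and those of the other 8 reached both sides of it. *Prdx1*, a peroxide-reducing enzyme, was at 421 CPM in shallow and 1125 CPM in deep WT barcodes, but at 728 and 752 CPM in ND6. The lowest included those of *Bc1*, *Gnb1*, *Rmdn3*, *Sptbn1*, *Cpe*, *Gas5*, *Plekhb2*, *Dpm3*, and *Plekhb1*. In WT the intervals of *Plekhb2* (-1.15 to 0.18) and *Dpm3* (-1.31 to 0.09) reached both sides of 0, and in ND6 *Bc1* alone of these 9 had an interval below 0 (-0.74, -1.14 to -0.35). *Gnb1*, a phototransduction subunit, was at 3548 CPM in shallow and 1400 CPM in deep WT barcodes, at 3124 and 3064 CPM in ND6, and at 7099 CPM in WT rod barcodes.

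Bipolar cell genes had more UMIs in ND6 than in WT RPE barcodes, and in deep ones a handful of barcodes held most of them. Apart from *Trpm1*, which RPE also expresses, the bipolar list had 67 UMIs in deep WT and 307 in deep ND6 RPE barcodes, and 6 ND6 barcodes with at least 5 such UMIs held 225 of the 307. Shallow barcodes had 2 such UMIs in WT and 163 in ND6, with at most 3 in any ND6 barcode. *Gng13*, a G protein subunit of ON bipolar cells, had 8 UMIs in deep WT and 112 in deep ND6 barcodes, and 7 and 54 in rod-poor ones. *Trpm1* itself, at 189 and 114 CPM in rod-poor barcodes (-0.73, -1.29 to -0.21), is both a bipolar channel gene and a gene of pigment cells, and stood lower in ND6. Hemoglobin and other red blood cell genes had 9 UMIs in WT and 158 in ND6 RPE barcodes, 150 of the latter in shallow ones.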

How the data were processed

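The authors deposited 1 matrix of raw UMI counts per library, made from 10x 3′ reads with Cell Ranger 3.0.2 on mm10 per the submitters' processing notes. The annotation release is not given in the sources used here. The matrices were not filtered to called cells, so free RNA and empty droplets are in them. Barcodes were kept above 400 UMIs and 200 genes with up to 20% mtDNA-encoded UMIs, and no doublet was called or removed. Counts were summed over RPE barcodes of each library below and from 2000 UMIs and divided by their total (CPM). Gene levels carry exact Poisson intervals, shares exact Clopper-Pearson intervals, and ratios exact conditional intervals (95%), which cover counting error only and do not measure the spread between animals. A ratio was taken where both libraries together held 50 or more UMIs of a gene in the set compared, and called at 2-fold. Rod barcodes, with the free RNA of barcodes of 10 to 100 UMIs, served as background. Detection shares were also taken after thinning each barcode to 400 UMIs.

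Named genes were those of the gene lists and, of all other genes, the 10 highest and 10 lowest ratios of ND6 over WT in deep barcodes with at least 200 UMIs over both libraries and the same direction in the mean per-barcode CPM, and the 10 highest and 10 lowest ratios of deep over shallow barcodes with at least 200 UMIs in each library and the same direction in both. Rod, mtDNA-encoded, and sex-linked genes were left out of the former. Some genes that the rule or the lists name are not reported here. The members and the gene lists were chosen with earlier results of these data known. Coordinates are those of GENCODE M21, in which 32158 of 32285 gene identifiers were found, and promoters those of RefSeq on GRCm38.p6. Python 3.11.15, numpy 2.4.6, scipy 1.17.1, pandas 2.3.3, and matplotlib 3.10.9 were used, and the scripts were tested on simulated data.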

Additional observations from a re-analysis of the deposited data

Results flagged for a closer look

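Several gene lists took a larger share of UMIs in deep than in shallow RPE barcodes of the WT library and a smaller share in those of the ND6 library, or the reverse, and the difference between the libraries was not tested. Values are log2 of the share in deep over shallow barcodes, first in WT and then in ND6. They were 0.50 and -0.11 for the 7 rule markers, which chose the barcodes, and 0.48 and -0.15 for retinoid-cycle genes outside the rule. Barrier and transport genes had 0.39 and -0.10, phagocytosis and lysosome genes 0.40 and -0.057, and secreted and matrix genes 0.62 and -0.10. Rod genes ran the other way, with -1.38 and 0.12, but the median rod share per barcode was lower in deep than in shallow RPE of both libraries (3.21% and 0.546% in WT, 1.90% and 0.908% in ND6), and 8 of the 9 ND6 barcodes from 8000 UMIs had at least 2% rod transcripts. Müller cell genes, nearly all *Clu*, had 0.25 and -0.22. Nuclear genes of oxidative phosphorylation had 0.20 and -0.057, among them complex I with 0.20 and -0.063 and complex V with 0.24 and -0.070. Antioxidant genes had 0.27 and -0.091, and glycolysis genes -0.15 and 0.15.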

How the results depend on the processing

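With 1 library per genotype no library could be left out. No paired analysis was possible because the groups share only 1 replicate number. The RPE share stayed higher in ND6 under every alternative for it. Without the mtDNA limit it was 1.29% in WT and 4.11% in ND6, and with *Ttr* left out of the rule 1.56% and 3.40%. The rule without *Ttr* also asked only for *Rpe65*, *Rgr*, and *Rdh5* at 0.5% of UMIs, and for *Rpe65* alone above *Glul*. In ND6 the RPE share was 3.12% with a floor of 1000 UMIs, 5.01% with the 4 markers at 0.5%, and 4.29% with them at 2%. The deep share of WT and ND6 RPE was 86.7% and 51.7% with a split at 1000 UMIs and 45.6% and 5.69% at 4000 UMIs, and without the mtDNA limit 59.7% in WT.

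Without that limit mtDNA-encoded shares were 19.0% and 6.63% in shallow and 5.55% and 5.22% in deep WT and ND6 RPE. With the limit, the means over barcodes were 6.45% in deep WT and 5.37% in shallow ND6. Rod shares as medians over barcodes were 3.21% and 1.90% in shallow and 0.546% and 0.908% in deep WT and ND6 RPE, and with the rule at 2% they were 2.87%, 2.77%, 1.37%, and 2.97% in that order.

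List medians of ND6 over WT in deep RPE moved under several settings. Without the mtDNA limit that of mtDNA-encoded genes was -0.13 against -0.30 with it, and *mt-Co1* had -0.13 against -0.31. With under 2% rod transcripts they were -0.23 for the retinoid cycle, -0.063 for secreted and matrix, -0.65 for mtDNA-encoded, and -0.085 for nuclear oxidative phosphorylation genes, and with the split at 4000 UMIs -0.98, -0.62, -0.11, and -0.29. With the mean per-barcode CPM they were -0.37 for the retinoid cycle and -0.062 for oxidative phosphorylation, which had -0.25 with scaling by the median of ratios. After the data were seen, 2 of the alternatives that moved a median were added. From 2000 to below 8000 UMIs oxidative phosphorylation had -0.025, and with under 2% rod transcripts and no mtDNA limit mtDNA-encoded genes had -0.41 (against -0.65 with the limit), the retinoid cycle -0.26, secreted and matrix -0.10, and oxidative phosphorylation -0.094. *Kcnj13* reversed to -0.040 with the split at 4000 UMIs. *Dct* ranged from -1.74 to -1.46 and *Cox8b* from -2.20 to -1.62 over 11 settings. The causes were not tested.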
